A study of Mus musculus with 12 samples.

Results

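These results describe the transcriptional response to dDAVP in cells whose TAZ had been knocked down. The comparison holds the 6 libraries labelled TAZ siRNA, of 12 in the series, taken by their labels: 3 treated with dDAVP and 3 with vehicle. It was described over the 15932 genes that passed the filter on low counts, of 45777 in the gene table. mpkCCDc11, the cell used throughout, is an established mouse line of cortical collecting duct epithelium. dDAVP (desmopressin) is a synthetic vasopressin that acts on the V2 receptor. All groups were grown on permeable filters for 3 days, then held for 24 h in medium free of serum and hormones, and dDAVP was given basolaterally at 1e-09 M. Exposures of 15 min, 30 min and 24 h are listed for the series and none is assigned to these libraries, so the duration behind every value below is unknown. The genotype label of the 6 libraries is TAZ knockdown, and that of the 6 control siRNA libraries (3 with vehicle, 3 with dDAVP) is WT. The latter are used here only for comparison. Knockdown with siRNA is partial and transient, and a cell line lacks the neighbouring cells and fluid flow of a tubule. The labels do not state whether replicate libraries are from separate cultures; p-values therefore reflect only library-to-library spread, possibly technical.

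In the collecting duct, vasopressin binds the V2 receptor on the basolateral membrane, adenylyl cyclase makes cAMP, and protein kinase A moves vesicles with the water channel aquaporin-2 to the apical membrane and raises transcription of its gene. CREB-family factors and their coactivators carry the cAMP signal to many promoters, and phosphodiesterases end it by degrading cAMP. TAZ, encoded by Wwtr1, is a coactivator that enters the nucleus when Hippo kinases are inactive and works with TEAD factors on genes of growth, cytoskeleton and matrix.

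Library totals in the 6 libraries ran from 45095331 to 61725339 estimated counts. A level is given below as CPM, a gene's counts scaled to a library total of 1e+06, and 3 counts in 1 library, the limit that a count of 0 allows, correspond to 0.0486 to 0.0665 CPM. Wwtr1 was at 119, 114 and 116 CPM with vehicle and 108, 127 and 109 CPM with dDAVP after TAZ siRNA, below all 6 control siRNA libraries (161 to 186 CPM). The dDAVP and vehicle groups overlapped (log2 change ± standard error -0.03 ± 0.05, adjusted p = 0.801 by edgeR). Neither Yap1, the paralogue of TAZ (0.02 ± 0.03, adjusted p = 0.825), nor Taz, which encodes the mitochondrial enzyme tafazzin and not the siRNA target (adjusted p = 0.993), passed the test. The first principal component of the 6 libraries (31.5% of variance) placed the vehicle libraries at -24.7 to -19.0 and the dDAVP libraries at 14.1 to 26. The second (22.2%) placed dDAVP replicates 2 and 3 at opposite ends, at -33.4 and 27.3. Of 15 principal cell markers 12 passed the filter on low counts, and of the 15 none was at 0 in every library. Their levels differed widely. Tfcp2l1, Gata3, Hsd11b2 and Scnn1a were above 100 CPM in all 6 libraries, and Aqp3, Aqp4, Scnn1b, Elf5, Fxyd4 and Kcnj1 were below 1 CPM. Several defining markers of other kidney cells were at 0 in all 6 libraries: Slc26a4 and Foxi1 of intercalated cells, Nphs1 and Wt1 of podocytes, Hnf4a of proximal tubule, Slc12a1 of the thick limb, Cdh5 of endothelium and Dcn of fibroblasts. Other members of the same lists were expressed: over the 6 libraries Lrp2 of proximal tubule ran from 124 to 153 CPM (-0.17 ± 0.05, adjusted p = 0.0252, and 0.06 to 0.114 without vehicle replicate 1 or 2 or dDAVP replicate 1 or 3), Atp6v1b1 of intercalated cells from 80.6 to 105 CPM (0.24 ± 0.05, adjusted p = 0.00272), Podxl, listed for podocytes, from 79.8 to 112 CPM and Col1a1 of fibroblasts from 4.03 to 6.02 CPM (-0.25 ± 0.12, adjusted p = 0.214). Atp6v1b1 and Col1a1 were named after their values were seen.

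dDAVP changed 1719 of 15932 genes in TAZ siRNA cells, 10.8% of those tested. A gene is called here when edgeR's quasi-likelihood test gave a Benjamini-Hochberg adjusted p under 0.05 over all genes tested. Changes are log2 fold changes, dDAVP over vehicle, ± standard error (3 libraries a group). The standard error was derived as the size of the change over the square root of that test's F statistic. Of the 1719 genes 1016 were higher (6.38%) and 703 lower (4.41%), and 3813 genes had an unadjusted p under 0.05. Most changes were small: the median size was 0.25 on the log2 scale, and 96 genes rose and 18 fell at least 2-fold. In 999 of the 1016 genes called higher all 3 dDAVP libraries lay above all 3 vehicle libraries, and in 685 of the 703 called lower all lay below. Over all genes tested, 2190 were separated upward and 2003 downward in this way. Calls depended on the level of the gene. Below 1 CPM 1.89% of genes were called, with a median size of 1.74, and above 100 CPM 18.6% were called, with a median size of 0.18. Of the 1719 calls, 936 held when each of the 6 libraries was left out in turn (592 higher, 344 lower), and the fewest calls, 1118 (680 higher, 438 lower), were made without vehicle replicate 2.

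**Figure D1:**
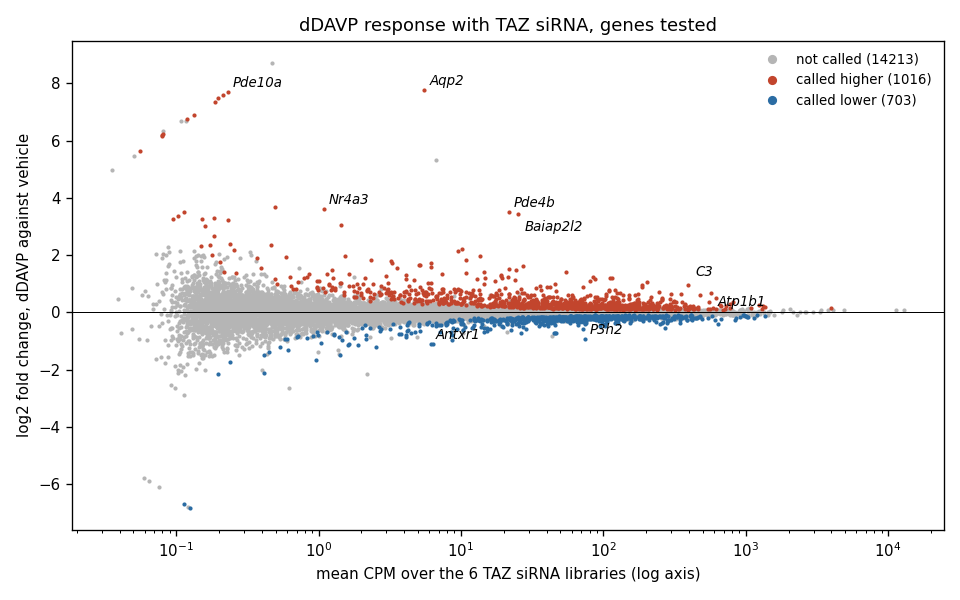
Mean CPM of each tested gene over the 6 TAZ siRNA libraries (x axis, log scale) against its log2 fold change, dDAVP over vehicle (y axis). Each point is a gene; the 1016 called higher are red, the 703 called lower are blue and the rest are grey. Called changes narrow from the low to the high levels.

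The clearest increases were taken by the smallest p among genes of at least 5 CPM, 15 in all. Pde4b, a phosphodiesterase that degrades cAMP, was at 3.21, 3.71 and 3.55 CPM with vehicle and 39.7, 42.7 and 37.7 CPM with dDAVP. The change was 3.52 ± 0.09, adjusted p = 2e-14, an 11.5-fold rise. Baiap2l2, an I-BAR protein that bends membranes in microvilli, was at 4.97, 3.27 and 4.60 CPM with vehicle and 44.7, 48.8 and 45.0 CPM with dDAVP (3.43 ± 0.10, adjusted p = 5.46e-13). The lowest dDAVP library of either gene was several times its highest vehicle library, with no overlap. Nipal1, a magnesium transporter, was at 5.57, 5.40 and 5.70 CPM with vehicle and 20.7, 23.6 and 20.4 CPM with dDAVP (1.95 ± 0.09, adjusted p = 4.27e-11). Nr4a1, an orphan nuclear receptor of the immediate early class, was at 11.7, 14.6 and 13.2 CPM with vehicle and 41.0, 43.4 and 38.5 CPM with dDAVP (1.64 ± 0.07, adjusted p = 2.47e-11). Eya2, a phosphatase and transcriptional coactivator, was at 13.6, 12.4 and 12.6 CPM with vehicle and 36.6, 38.5 and 33.6 CPM with dDAVP (1.50 ± 0.06, adjusted p = 3.57e-11). In these genes the replicates of a group lay close together and the groups did not overlap, which a choice by the smallest p favours.

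Of the other increases, Slc39a4, a zinc importer, was at 29.0, 31.6 and 29.8 CPM with vehicle and 78.7, 84.9 and 74.5 CPM with dDAVP (1.40 ± 0.05, adjusted p = 4.44e-12). Synpo, which encodes the actin-binding protein synaptopodin, was at 49.6, 51.1 and 50.5 CPM with vehicle and 115, 130 and 113 CPM with dDAVP (1.24 ± 0.05, adjusted p = 1.15e-11). Cdk18, a kinase of the PCTAIRE family, was at 65.9, 67.4 and 70.2 CPM with vehicle and 148, 169 and 152 CPM with dDAVP (1.21 ± 0.04, adjusted p = 4.74e-12). dDAVP replicate 2 was the highest of the dDAVP libraries in each of these 3 genes, and all dDAVP libraries exceeded all vehicle libraries. Adora1, the adenosine A1 receptor, which couples to the G protein that inhibits adenylyl cyclase, was at 138, 127 and 127 CPM with vehicle and 235, 263 and 233 CPM with dDAVP (0.90 ± 0.05, adjusted p = 5.97e-10). Chp1, a calcineurin-like partner of sodium-proton exchangers, was at 81.6, 79.4 and 81.8 CPM with vehicle and 135, 141 and 135 CPM with dDAVP (0.76 ± 0.03, adjusted p = 3.57e-11). Selenbp1 changed by 1.00 ± 0.05, adjusted p = 7.66e-10, and B3gnt7, a glycosyltransferase that extends sugar chains, by 2.13 ± 0.11, adjusted p = 4.66e-10. Neither gene had overlapping groups.

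The 15 clearest decreases were taken by the same rule. Itgb6, an integrin beta chain that binds latent TGF-beta, was at 89.6, 86.2 and 83.7 CPM with vehicle and 59.5, 60.1 and 56.1 CPM with dDAVP (-0.56 ± 0.04, adjusted p = 2.5e-08). P3h2, which hydroxylates prolines in basement membrane collagen, was at 104, 97.9 and 89.5 CPM with vehicle and 51.7, 52.5 and 48.0 CPM with dDAVP (-0.93 ± 0.06, adjusted p = 1.84e-08). Every dDAVP library of both genes lay below every vehicle library. St6gal1, the enzyme that caps sugar chains with sialic acid, was at 58.1, 53.6 and 57.5 CPM with vehicle and 33.4, 36.0 and 33.6 CPM with dDAVP (-0.72 ± 0.05, adjusted p = 1.03e-08). Podxl, the apical sialomucin podocalyxin, was at 109, 110.5 and 112 CPM with vehicle and 79.8, 80.3 and 81.4 CPM with dDAVP (-0.46 ± 0.03, adjusted p = 6.09e-08). Nrp1, a receptor for semaphorins and VEGF, was at 56.2, 57.6 and 56.7 CPM with vehicle and 32.9, 32.9 and 38.3 CPM with dDAVP (-0.71 ± 0.06, adjusted p = 2.1e-07), with dDAVP replicate 3 above the other 2. Fgf18, a secreted growth factor, was at 10.5, 13.1 and 10.8 CPM with vehicle and 6.13, 5.44 and 6.26 CPM with dDAVP (-0.95 ± 0.10, adjusted p = 3.35e-06). Mme, the membrane peptidase neprilysin (-0.71 ± 0.07, adjusted p = 2.01e-06), Enc1 (-0.41 ± 0.04, adjusted p = 6.03e-07) and Msrb3, a methionine sulfoxide reductase (-0.35 ± 0.04, adjusted p = 2.77e-06), fell as well. Of the 15 genes chosen as lower Fgf18 had the steepest decrease, and all 3 of its dDAVP libraries lay below its vehicle libraries.

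**Figure D2:**
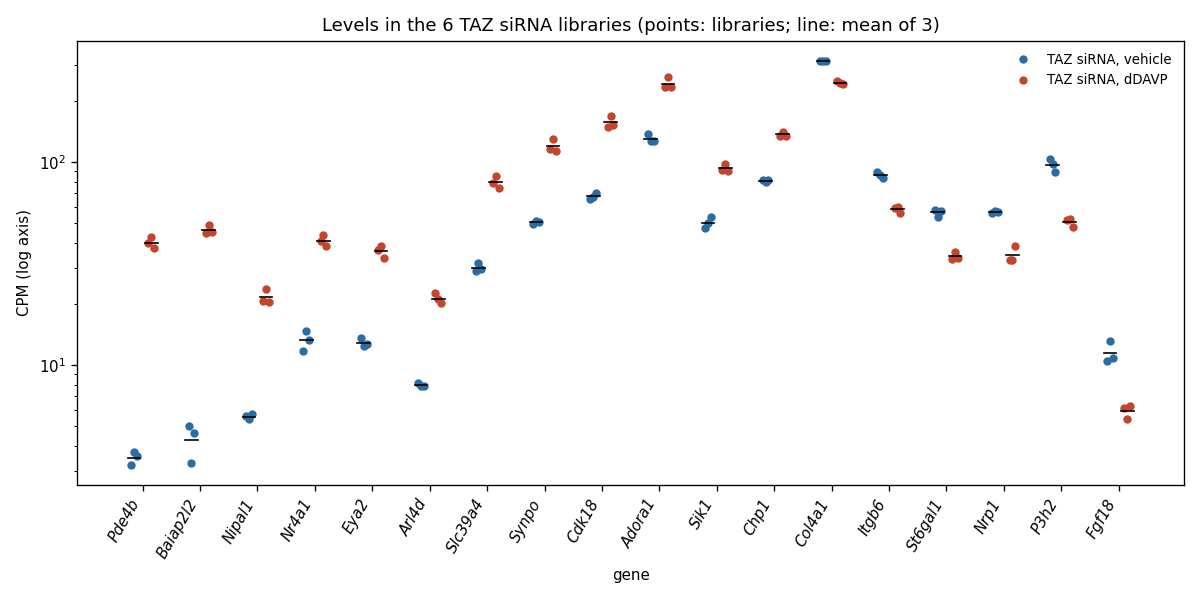
CPM (y axis, log scale) of 18 genes in each TAZ siRNA library, vehicle in blue and dDAVP in red; a point is a library and a black line the mean of 3. In every gene plotted the 3 dDAVP libraries lie wholly above or wholly below the 3 vehicle libraries. The genes were chosen by the smallest p, which favours separate groups.

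The V2 receptor and the kinase's partners changed in part. Of 29 tested genes of the V2 receptor, adenylyl cyclases, protein kinase A and its anchors, 7 rose (24.1%) and 3 fell (10.3%). The shares over all genes tested were 6.38% and 4.41%. The lists here and below were chosen with earlier results of these data known, so a share above that of all genes is a description only. The median change of the list was -0.01, against -0.0009 over all genes tested. Avpr2, the V2 receptor itself, was at 24.9, 20.9 and 25.8 CPM with vehicle and 36.4, 35.5 and 33.3 CPM with dDAVP (0.56 ± 0.07, adjusted p = 5.26e-05). Adcy6, the adenylyl cyclase with the highest level per length (175 TPM with vehicle and 198 TPM with dDAVP, where TPM is the authors' length-scaled level), was at 402, 393 and 392 CPM with vehicle and 442, 483 and 454 CPM with dDAVP (0.21 ± 0.03, adjusted p = 0.000276). Both had separate groups, with gaps small beside those of Pde4b. Prkar2b, a regulatory subunit of protein kinase A, rose (0.60 ± 0.05, adjusted p = 9.14e-08), as did the anchoring proteins Akap12 (1.07 ± 0.07, adjusted p = 5.3e-08) and Akap13 (0.22 ± 0.05, adjusted p = 0.00391). Pkia, the peptide inhibitor of the kinase, fell (-0.52 ± 0.07, adjusted p = 0.000123), as did Rapgef3, the cAMP-activated exchange factor EPAC1 (-0.21 ± 0.04, adjusted p = 0.00372). Arrb1, beta-arrestin 1, changed by -0.26 ± 0.06, adjusted p = 0.0115, with an adjusted p of 0.0617 without dDAVP replicate 3. Adcy3 did not pass the test, at 0.60 ± 0.21, adjusted p = 0.0766.

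Phosphodiesterases rose in 4 of 11 tested members, and 1 fell (9.09% against 4.41% of all genes tested), or 2 without vehicle replicate 3 or dDAVP replicate 2. The 4 that rose were 36.4% of the list, against 6.38% of all genes tested. Besides Pde4b they were Pde4d (3.37, 3.60 and 3.92 CPM with vehicle and 15.8, 18.3 and 16.3 CPM with dDAVP; 2.21 ± 0.09, adjusted p = 1.43e-11), Pde4a (0.51 ± 0.09, adjusted p = 0.000489) and Pde10a. Pde10a had 0 counts in all vehicle libraries and 26, 26 and 18 with dDAVP, at least 28.2-fold higher against a floor of 3 counts over the vehicle group. It could not have passed the filter on low counts through the vehicle libraries, which raises the share of the list that rose. Pde5a, which degrades cGMP, fell (-0.24 ± 0.05, adjusted p = 0.00168). Per length and library, Pde4b went from 2.25 ± 0.15 to 25.4 ± 1.8 TPM (mean ± SD, n = 3) and Pde4d from 0.92 ± 0.10 to 4.77 ± 0.30 TPM, so that Pde4b passed Pde5a, at 13.1 ± 0.45 TPM with vehicle and 10.8 ± 0.05 TPM with dDAVP. Among Pde4b transcript models only NM_001177980 (chromosome 4 from 102570060 to 102607262, mm10) reached 50 counts over the 6 libraries. It held 199, 228 and 217 counts with vehicle and 2359, 2003 and 1685 with dDAVP. Pde4d counts were split over 6 models that passed that minimum. The model XM_006517647 (chromosome 13 from 109685112 to 109955969) held 131, 17 and 47 counts with vehicle and 589, 421 and 426 with dDAVP, and XM_006517649, which starts further 3′ at 109896022, held 3, 9 and 152 against 149, 303 and 296. The longest-spanning, XM_006517644, had 310 counts over the vehicle libraries and 200 over the dDAVP libraries. How reads are divided among overlapping models is an estimate, and the division varied widely between replicates.

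Among CREB factors, CRTC coactivators and SIK kinases, 5 of 16 rose and 2 fell (median 0.04). These are 31.25% and 12.5%, against 6.38% and 4.41% of all genes tested. Sik1, the salt-inducible kinase that is induced by cAMP and inhibits CRTC coactivators, was at 47.5, 49.9 and 53.3 CPM with vehicle and 90.8, 98.2 and 90.2 CPM with dDAVP (0.89 ± 0.05, adjusted p = 4.66e-10). Crem, which encodes both activators and the inducible repressor ICER, was at 3.86, 3.90 and 3.92 CPM with vehicle and 6.68, 6.69 and 6.72 CPM with dDAVP (0.78 ± 0.12, adjusted p = 0.000161), its counts divided over 9 transcript models of at least 50 counts. Crtc1 (0.25 ± 0.03, adjusted p = 2.98e-05) and Sik3 (0.22 ± 0.03, adjusted p = 6.64e-05) rose. Creb5 fell (-0.74 ± 0.14, adjusted p = 0.00121), as did Atf2 (-0.12 ± 0.03, adjusted p = 0.0166, and 0.0811 without dDAVP replicate 3), and Creb1 did not pass (-0.08 ± 0.05, adjusted p = 0.352). Of 23 NR4A, AP-1, EGR and KLF factors 10 rose (43.5%) and 4 fell (17.4%), with a median of 0.18. All 3 NR4A receptors were among those that rose. Nr4a2 was at 8.91, 8.93 and 9.00 CPM with vehicle and 20.3, 22 and 18.9 CPM with dDAVP (1.19 ± 0.07, adjusted p = 1.96e-09) and Nr4a3 at 0.226, 0.0976 and 0.161 CPM with vehicle and 1.70, 2.38 and 1.98 CPM with dDAVP (3.62 ± 0.29, adjusted p = 1.03e-07). Klf2, a factor of the KLF family, rose as well (0.72 ± 0.16, adjusted p = 0.00516). Other immediate early genes fell: Atf3 was at 17.1, 19.0 and 15.6 CPM with vehicle and 11.8, 11.7 and 11.9 CPM with dDAVP (-0.54 ± 0.10, adjusted p = 0.00102), Jun, a subunit of AP-1, changed by -0.35 ± 0.04, adjusted p = 2.54e-05 and Egr1 by -0.28 ± 0.05, adjusted p = 0.000642.

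A full cAMP response element was found at about the same share of starts in genes that rose as in all genes tested. The palindrome TGACGTCA, the binding letters of CREB, was searched on both strands from 250 bases before to 50 after each start in RefSeq windows of GRCm38.p6, which were found for 11562 of the 15932 tested genes. It was present in 3.38% of tested genes with a window, in 3.50% of 771 called higher, in 3.40% of 530 called lower and in 1 of 65 that rose at least 2-fold. The shorter site TGACG, which the palindrome contains, was present in 33.7%, 35.8%, 31.1% and 24.6% of the same sets. GGAATG, the letters bound by TEAD factors, was in 15.0% of tested genes, 15.7% of those higher and 18.9% of those lower. The 2 windows printed here belong to the genes with the largest increases among the 27 called higher that hold the full element, which is in capitals; the start lies 50 bases before the end of each. That of Arl4d is chr11:101665291-101665590 on the plus strand, with the element beginning 26 bases before the start, and that of Tmem147 is chr7:30729485-30729784 on the minus strand, with the element beginning 51 bases before it.
Arl4d: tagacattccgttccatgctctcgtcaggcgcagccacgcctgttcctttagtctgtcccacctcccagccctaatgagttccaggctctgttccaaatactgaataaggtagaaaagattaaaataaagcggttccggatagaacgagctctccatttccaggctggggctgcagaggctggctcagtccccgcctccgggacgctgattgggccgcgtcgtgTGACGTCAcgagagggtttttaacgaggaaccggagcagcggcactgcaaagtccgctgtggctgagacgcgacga
Tmem147: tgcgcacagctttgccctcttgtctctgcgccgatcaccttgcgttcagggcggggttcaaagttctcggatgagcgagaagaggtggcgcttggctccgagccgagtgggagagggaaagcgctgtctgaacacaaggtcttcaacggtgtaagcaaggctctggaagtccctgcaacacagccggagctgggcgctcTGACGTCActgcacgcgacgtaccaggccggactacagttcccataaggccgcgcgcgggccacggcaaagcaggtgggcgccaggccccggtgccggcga
Arl4d, a small GTPase of the ARF family, was at 8.13, 7.84 and 7.87 CPM with vehicle and 22.5, 21.0 and 20.2 CPM with dDAVP (1.42 ± 0.07, adjusted p = 4.66e-10). Tmem147, a membrane protein of the endoplasmic reticulum, was at 19.6, 19.5 and 20.3 CPM with vehicle and 31.7, 27.1 and 26.4 CPM with dDAVP (0.52 ± 0.08, adjusted p = 0.000266). Both genes had separate groups, and the elements are letters found in a window, not measured binding.

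Of 13 aquaporins and urea transporters 6 passed the filter on low counts, of which 4 rose (66.7% against 6.38% of all genes tested) and none fell. Aqp2 and Slc14a2, at or near 0 with vehicle, could not have passed the filter through the vehicle libraries, which raises this share. Leaving out 1 library gave 4 higher of 7 or 8 tested. Aqp2, the vasopressin-regulated water channel, had 9, 0 and 0 counts with vehicle and 611, 645 and 413 with dDAVP. Its 9 vehicle counts all came from replicate 1, and the normalised ratio was 224 (95% counting interval 118 to 492). Aqp5, a water channel of glands and lung, was at 5.68, 3.99 and 4.65 CPM with vehicle and 16.4, 18.7 and 15.9 CPM with dDAVP (1.83 ± 0.11, adjusted p = 1.96e-09). Aqp6, a channel of intercalated cell vesicles, was at 13.5, 8.87 and 10.5 CPM with vehicle and 24.7, 30.3 and 26.1 CPM with dDAVP (1.30 ± 0.11, adjusted p = 9.51e-07). In all 3 the groups were separate, and the genes lie within chromosome 15 from 99579056 to 99605478 (mm10). With dDAVP, Aqp2 stood at 20.7 ± 4.7 TPM, Aqp5 at 29.2 ± 2.8 and Aqp6 at 28.7 ± 3.5 (mean ± SD, n = 3). Aqp5 and Aqp6 did not differ beyond their spread, and Aqp2 stood below both. Slc14a2, the urea transporter of the inner medulla, had 0 counts with vehicle and 15, 10 and 15 with dDAVP, at least 16.1-fold higher. Aqp3 was at 0.452, 0.602 and 0.307 CPM with vehicle and 0.537, 0.382 and 0.728 CPM with dDAVP and did not pass (0.27 ± 0.30, adjusted p = 0.652).

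An apical sodium channel subunit fell and subunits of the basolateral sodium pump rose. Scnn1a, which encodes the alpha chain of the epithelial sodium channel ENaC, was at 134, 141 and 138 CPM with vehicle and 118, 113 and 112 CPM with dDAVP (-0.27 ± 0.03, adjusted p = 1.35e-05), and Scnn1b (0.67 ± 0.33, adjusted p = 0.238, and 0.0273 without vehicle replicate 1) and Scnn1g (0.14 ± 0.17, adjusted p = 0.693) did not pass. Of 20 genes of the channel and its regulators 4 rose, 7 without vehicle replicate 1, and 2 fell, 1 without dDAVP replicate 3. Among all genes tested, 6.38% rose and 4.41% fell. Nedd4l, the ubiquitin ligase that removes the channel from the membrane, rose (0.35 ± 0.04, adjusted p = 1.8e-05), as did Tmprss4, a protease that activates it (1.31 ± 0.14, adjusted p = 2.82e-06), and Wnk4 (0.28 ± 0.04, adjusted p = 7.39e-05). Sgk1 did not pass (0.04 ± 0.17, adjusted p = 0.918). Of 11 genes of the sodium pump and its FXYD regulators 4 rose (36.4% against 6.38% of all genes tested) and none fell. Atp1b1, the beta subunit, was at 477, 429 and 418 CPM with vehicle and 701, 731 and 682 CPM with dDAVP (0.67 ± 0.04, adjusted p = 1.27e-08). Fxyd2, the gamma subunit, was at 12.9, 10.7 and 10.0 CPM with vehicle and 33.3, 31.7 and 31.0 CPM with dDAVP (1.51 ± 0.10, adjusted p = 5.55e-08). The groups of Atp1b1 and Fxyd2 did not overlap.

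Potassium channels rose in 4 of 25 tested members (16.0%) and fell in 1 (4.0%), against 6.38% and 4.41% of all genes tested. Kcnk1 (TWIK-1) was at 218, 213 and 224 CPM with vehicle and 309, 296 and 286 CPM with dDAVP (0.44 ± 0.03, adjusted p = 9.14e-08), and Kcnq1 (0.54 ± 0.06, adjusted p = 1.22e-05) and Kcnk5 (0.35 ± 0.06, adjusted p = 0.00133) rose, whereas Kcnn1 fell (-0.51 ± 0.09, adjusted p = 0.00064). Acid-base and intercalated cell genes rose in 10 of 37 (27.0%, median 0.09) and fell in 1 (2.70%), or 0 without vehicle replicate 2 or dDAVP replicate 3. Atp6v0a4, the kidney form of the proton pump's a subunit, was at 13.2, 11.3 and 10.8 CPM with vehicle and 26.8, 29.8 and 24.7 CPM with dDAVP (1.20 ± 0.08, adjusted p = 1.15e-08). The summed level of 10 intercalated cell markers was 91.7 to 105 CPM with vehicle and 121 to 136 CPM with dDAVP, 3 of 4 tested rose, and 5 (Atp6v0d2, Atp6v1g3, Slc26a4, Foxi1 and Kit) were at 0 in all 6 libraries. The part of such cells in the changes of Atp6v0a4 and Aqp6 was not tested. Fewer cells of a type and less RNA per cell cannot be told apart in such bulk libraries.

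Solute carriers, the largest family examined, gave 41 of 234 higher and 5 lower, with a median of 0.04. These are 17.5% and 2.14% of the list, against 6.38% and 4.41% of all genes tested. Apart from Slc39a4, the zinc importer Slc39a14 (0.55 ± 0.04, adjusted p = 2.6e-08) and Slc5a3, the inositol transporter of osmotic stress (0.56 ± 0.06, adjusted p = 2.39e-06), rose. Slc12a4, a potassium-chloride cotransporter (-0.37 ± 0.05, adjusted p = 0.000144), and the creatine transporter Slc6a8 (-0.33 ± 0.06, adjusted p = 0.000782) fell. Metallothioneins, which bind zinc, rose: Mt1 was at 134, 125 and 119 CPM with vehicle and 264, 232 and 239.9 CPM with dDAVP (0.96 ± 0.08, adjusted p = 1.03e-06) and Mt2 at 53.8, 52.1 and 48.8 CPM with vehicle and 118, 102 and 112 CPM with dDAVP (1.10 ± 0.07, adjusted p = 4.05e-08). Slc39a10, another zinc importer, fell (-0.24 ± 0.04, adjusted p = 0.000391). ABC transporters rose in 6 of 27; Abcc3, an exporter of glucuronide conjugates, was at 9.12, 10.1 and 9.58 CPM with vehicle and 14.1, 15.1 and 14.4 CPM with dDAVP (0.60 ± 0.07, adjusted p = 5.8e-06). Receptors and mediators that oppose vasopressin rose in 4 of 16 and fell in 1, or 2 without dDAVP replicate 3. They were Adora1, Ptgs2, the inducible prostaglandin synthase (0.63 ± 0.07, adjusted p = 1.01e-05), Rgs2 (0.98 ± 0.14, adjusted p = 8.17e-05) and Ptger1, a prostaglandin E2 receptor (0.30 ± 0.09, adjusted p = 0.0308). Ptger1 missed the threshold without vehicle replicate 2 or 3 or any of the 3 dDAVP libraries (adjusted p from 0.055 to 0.182). The purinergic receptor P2ry2 fell (-0.28 ± 0.05, adjusted p = 0.00121).

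Most called genes of microvilli and keratins were higher, and most called genes of focal adhesion were lower. Over all genes tested 6.38% were called higher and 4.41% lower. Of 23 genes of microvilli, ERM and I-BAR proteins 9 rose (39.1%) and 2 fell (8.70%), with a median of 0.12. Without vehicle replicate 2, dDAVP replicate 1 or dDAVP replicate 2, 5 were higher. After Baiap2l2 the largest rise was in Prom1, a protein of membrane protrusions, at 126, 117 and 116 CPM with vehicle and 177, 204 and 172 CPM with dDAVP (0.62 ± 0.06, adjusted p = 6.98e-07). Moesin (Msn) and Podxl fell (-0.28 ± 0.04, adjusted p = 0.000313 for Msn). Synpo and Podxl are also podocyte markers: Nphs1 and Wt1 were at 0 in all 6 libraries, and the podocyte list summed to 159 to 162 CPM with vehicle and 194 to 210 CPM with dDAVP. Stress fibre and focal adhesion genes fell in 14 of 49 (28.6%) and rose in 4 (8.16%), with a median of -0.09. The steepest decrease was that of Myl9, the regulatory light chain of myosin II in smooth muscle and stress fibres. It was at 0.758, 0.879 and 0.968 CPM with vehicle and 0.319, 0.425 and 0.309 CPM with dDAVP (-1.31 ± 0.30, adjusted p = 0.00658). Flnc, filamin C (-0.37 ± 0.06, adjusted p = 0.000846), and Itgb8 (-0.65 ± 0.14, adjusted p = 0.00568) fell too. Tagln2 rose (0.33 ± 0.05, adjusted p = 8.44e-05). Keratins rose in 5 of 13 (38.5%) and none fell (1 fell without vehicle replicate 1). Krt18 was at 676, 692 and 776 CPM with vehicle and 943, 903 and 898 CPM with dDAVP (0.36 ± 0.04, adjusted p = 1.83e-05). Krt19 was at 119.8, 124 and 136 CPM with vehicle and 186, 168 and 174 CPM with dDAVP (0.47 ± 0.05, adjusted p = 3.4e-06). Tight junction genes rose in 5 of 26, or 3 without vehicle replicate 2 or 3 or dDAVP replicate 1 or 2, and fell in 3. Cldn2, claudin-2, which forms a cation pore, was at 1.23, 1.16 and 1.26 CPM with vehicle and 2.13, 2.55 and 2.16 CPM with dDAVP (0.91 ± 0.21, adjusted p = 0.00811). Tjp3 (ZO-3) rose (0.36 ± 0.03, adjusted p = 1.19e-07) and Cldn1, claudin-1, fell (-0.61 ± 0.12, adjusted p = 0.00186). Of 21 genes of desmosomes and adherens junctions 4 were called higher (19.0%) and 3 lower (14.3%). Without vehicle replicate 2 or dDAVP replicate 1, 1 was higher. Without vehicle replicate 1 or dDAVP replicate 2, 2 were higher. The alpha-catenin gene Ctnna1 (0.22 ± 0.03, adjusted p = 0.000178) and Jup, plakoglobin (0.14 ± 0.03, adjusted p = 0.0117), rose, Jup not without vehicle replicate 1 (0.0559) or 2 (0.0799) or dDAVP replicate 1 (0.0679). Cdsn, corneodesmosin, was at 1.74, 2.47 and 2.07 CPM with vehicle and 0.974, 0.595 and 0.617 CPM with dDAVP (-1.50 ± 0.27, adjusted p = 0.00107) and Dsc2 fell (-0.29 ± 0.04, adjusted p = 0.000128). Machinery of aquaporin-2 vesicles gave 4 higher (11.1%) and 3 lower (8.33%) of 36. Leaving out 1 library gave 0 to 4 higher and 1 or 2 lower. There were 0 higher without vehicle replicate 2 and 1 without dDAVP replicate 1 or 2. There was 1 lower without vehicle replicate 2 or 3 or dDAVP replicate 3.

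Transcription factors of epithelial and collecting duct identity rose in 15 of 46 and fell in 2 (median 0.10), with 9 higher without vehicle replicate 2. The 15 and 2 are 32.6% and 4.35%, against 6.38% and 4.41% of all genes tested. Elf3, an epithelial ETS factor, was at 186, 173 and 182 CPM with vehicle and 227, 241 and 229.6 CPM with dDAVP (0.37 ± 0.04, adjusted p = 2.76e-06). Foxq1 was at 87.8, 83.1 and 76.0 CPM with vehicle and 119, 111 and 112 CPM with dDAVP (0.47 ± 0.04, adjusted p = 9.52e-07), Tfap2a at 147, 146 and 143 CPM with vehicle and 182, 214 and 199 CPM with dDAVP (0.45 ± 0.04, adjusted p = 9.24e-07), and Foxc1 changed by 0.42 ± 0.06, adjusted p = 4.57e-05. The rises were modest, and the groups of these genes did not overlap. Gata3 had overlapping groups, at 194, 165 and 174 CPM with vehicle and 206, 219 and 193 CPM with dDAVP (0.21 ± 0.05, adjusted p = 0.0143), and it missed the threshold without vehicle replicate 2 (0.114) or 3 (0.0552) or dDAVP replicate 1 (0.0521) or 2 (0.0848). Sox4 fell (-0.23 ± 0.03, adjusted p = 0.000152).

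Basement membrane genes fell together, in a list chosen with earlier results of these data known. Of 25 tested collagens, laminins and partners 15 fell and none rose, 60.0% against 4.41% lower over all genes tested, with a median of -0.22; without vehicle replicate 1, 1 rose. Their summed level was 10050, 9725 and 9698 CPM with vehicle and 8762, 8960 and 8688 CPM with dDAVP. All 5 called chains of type IV collagen, the network former of the basement membrane, had separate groups. Col4a1 was at 314, 315 and 313 CPM with vehicle and 249, 245 and 244 CPM with dDAVP (-0.35 ± 0.03, adjusted p = 1.45e-06) and its partner chain Col4a2 at 292, 305 and 288 CPM with vehicle and 242, 225 and 231 CPM with dDAVP (-0.34 ± 0.04, adjusted p = 4.01e-05). Col4a3 was at 126, 119 and 113 CPM with vehicle and 85.1, 87.8 and 85.1 CPM with dDAVP (-0.47 ± 0.05, adjusted p = 3.19e-06), Col4a4 at 306, 294 and 279 CPM with vehicle and 229, 222 and 228 CPM with dDAVP (-0.37 ± 0.04, adjusted p = 2.54e-06) and Col4a5 at 299.9, 279 and 276 CPM with vehicle and 215, 223 and 208 CPM with dDAVP (-0.40 ± 0.04, adjusted p = 8.42e-07). Fras1, an adhesion protein of embryonic basement membranes, was at 756, 730.3 and 698 CPM with vehicle and 543, 577 and 539 CPM with dDAVP (-0.40 ± 0.04, adjusted p = 2.21e-06), and Tinagl1 fell (-0.49 ± 0.09, adjusted p = 0.00139). Enzymes that modify collagen fell in 4 of 17 with none higher: with P3h2 were Loxl4, a lysyl oxidase (-0.60 ± 0.10, adjusted p = 0.000361), Plod2, a lysyl hydroxylase (-0.27 ± 0.06, adjusted p = 0.00355), and the collagen chaperone Serpinh1 (-0.21 ± 0.05, adjusted p = 0.00568). Matrix proteases and receptors fell in 6 of 28 (21.4%), 4 without vehicle replicate 2 or 3 or dDAVP replicate 2. The decreases were led by Antxr1 (-1.10 ± 0.13, adjusted p = 1.36e-05), Adamts5 (-0.35 ± 0.05, adjusted p = 0.000158) and Mmp15 (-0.34 ± 0.04, adjusted p = 1.93e-05). In this list 1 gene rose (3.57%), Htra1 (0.25 ± 0.06, adjusted p = 0.0149), or 0 without vehicle replicate 1 or dDAVP replicate 1 or 3. Fibroblast markers summed to 6.02 to 7.16 CPM with vehicle and 4.67 to 5.82 CPM with dDAVP, and Col1a2, Col3a1, Dcn and Lum were at 0 in all 6 libraries.

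Many mitosis genes fell, and no DNA replication gene did. Of 73 tested mitosis and G2/M genes 43 fell and none rose, 58.9% of the list against 4.41% of all genes tested. Their median was -0.16, and this list too was chosen with earlier results of these data known. The count was 29 to 41 when 1 of the 6 libraries was left out. In 50 of the 73 every dDAVP library lay below every vehicle library, against 2003 of all 15932 genes tested. The summed level was 11520, 11430 and 11220 CPM with vehicle and 10010, 9892 and 10400 CPM with dDAVP, with no overlap. Cenpf, a kinetochore protein, was at 431, 383 and 354 CPM with vehicle and 285, 301 and 328 CPM with dDAVP (-0.35 ± 0.07, adjusted p = 0.00322). Cenpe, its motor partner, changed by -0.30 ± 0.07, adjusted p = 0.0164, and was not called without vehicle replicate 1 or 2 or dDAVP replicate 1 or 2 (0.0527 to 0.0803). Hmmr, a spindle protein (-0.26 ± 0.04, adjusted p = 0.000172), Plk4, the kinase of centriole duplication (-0.24 ± 0.04, adjusted p = 0.000792), Mki67, the proliferation marker Ki-67 (-0.26 ± 0.05, adjusted p = 0.00165), and Top2a, the mitotic topoisomerase (-0.18 ± 0.03, adjusted p = 0.000573), also fell; these 4 were named after their values were seen. Of 53 DNA replication and S phase genes 2 rose (3.77% against 6.38% of all genes tested) and none fell, with a median of 0.01. They were Mcm2, a subunit of the replicative helicase, at 321, 323 and 334 CPM with vehicle and 365, 367 and 351 CPM with dDAVP (0.15 ± 0.03, adjusted p = 0.00263), and E2f2 (0.22 ± 0.07, adjusted p = 0.0403), whose call was lost without any of 5 libraries (0.0593 to 0.142). Leaving out 1 library gave 1 to 4 higher, 4 without dDAVP replicate 3 and 1 without dDAVP replicate 1 or any vehicle replicate, and 1 lower without vehicle replicate 1. No histone gene of 20 passed, and 1 fell without dDAVP replicate 1.

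**Figure D3:**
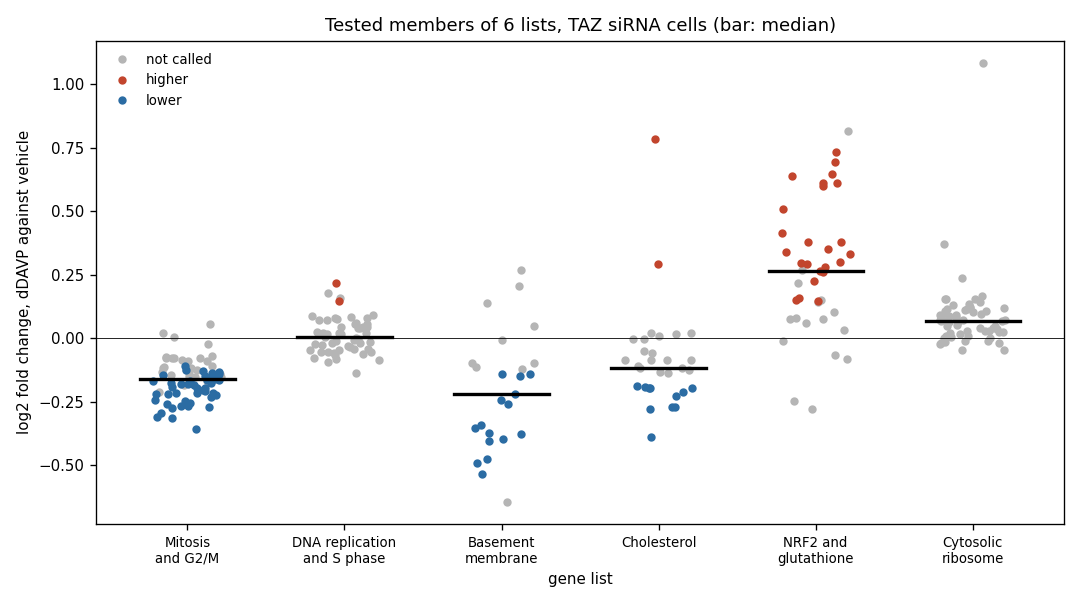
Log2 fold change, dDAVP over vehicle, of the tested members of 6 gene lists in TAZ siRNA cells. A point is a gene (red called higher, blue called lower, grey not called) and a bar the median, -0.16 for mitosis, 0.01 for DNA replication, -0.22 for basement membrane and 0.27 for NRF2 and glutathione genes.

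NRF2 is a transcription factor that raises genes of glutathione and of detoxification under oxidative stress. Of 40 tested genes of this list, chosen with earlier results of these data known, 24 rose and none fell. The 24 are 60.0% of the list against 6.38% of all genes tested, with a median of 0.27 and 21 to 23 higher when 1 library was left out. The summed level was 3376, 3325 and 3487 CPM with vehicle and 4129, 4026 and 3992 CPM with dDAVP. Gclc, the catalytic subunit of the enzyme that limits glutathione synthesis, was at 54.0, 48.1 and 50.8 CPM with vehicle and 62.1, 66.8 and 64.0 CPM with dDAVP (0.33 ± 0.05, adjusted p = 8.11e-05). Gsta4, a glutathione transferase, was at 8.76, 7.48 and 6.24 CPM with vehicle and 12.4, 13.1 and 11.8 CPM with dDAVP (0.73 ± 0.11, adjusted p = 0.00016), and Mgst1 (0.70 ± 0.14, adjusted p = 0.00199), Gstm3 (0.65 ± 0.13, adjusted p = 0.00285) and the carbonyl reductase Cbr3 (0.64 ± 0.13, adjusted p = 0.00237) rose. Gsta and Gstm genes have close copies, so their counts are uncertain. Conjugating and aldehyde-oxidising enzymes rose in 12 of 40, or 7 without vehicle replicate 1, and none fell (1 without vehicle replicate 3 or dDAVP replicate 3). Sult1d1, a sulfotransferase, rose (1.78 ± 0.23, adjusted p = 4.63e-05), and Ugt1a6a, whose exons are largely shared within the Ugt1a locus, changed by 3.05 ± 0.23, adjusted p = 5.65e-08.

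Some cholesterol genes fell and some fatty acid genes rose. Of 31 genes of cholesterol synthesis, uptake and efflux 11 fell, 35.5% against 4.41% of all genes tested, 18 did not pass and 2 rose (median -0.12), 1 without vehicle replicate 2. Idi1, isopentenyl diphosphate isomerase, was at 106, 127 and 116 CPM with vehicle and 87.4, 85.3 and 94.3 CPM with dDAVP (-0.39 ± 0.05, adjusted p = 9.7e-05), and Hmgcs1 at 315, 309 and 305 CPM with vehicle and 255, 250.3 and 265 CPM with dDAVP (-0.27 ± 0.04, adjusted p = 4.44e-05). Sqle, squalene epoxidase, fell too (-0.27 ± 0.04, adjusted p = 0.000161). Soat1, which esterifies cholesterol for storage, was at 88.0, 77.3 and 75 CPM with vehicle and 129, 150.3 and 135 CPM with dDAVP (0.79 ± 0.06, adjusted p = 2.73e-07), opposite in direction to the synthetic enzymes. Fatty acid genes rose in 9 of 39 (23.1% against 6.38% of all genes tested). In this list 3 fell (7.69% against 4.41%), or 0 without vehicle replicate 2. Cpt1a, which admits fatty acids to mitochondria, was at 223, 213 and 209 CPM with vehicle and 309, 310.5 and 288 CPM with dDAVP (0.49 ± 0.04, adjusted p = 6.01e-08), and Dgat2 (0.77 ± 0.08, adjusted p = 2.06e-06), Acacb (0.62 ± 0.09, adjusted p = 0.000113) and the desaturase Fads2 (0.36 ± 0.03, adjusted p = 1.07e-06) rose. Glycolysis genes rose in 3 of 23, 1 without dDAVP replicate 2, led by Ldha (208, 215 and 212 CPM with vehicle and 259, 276 and 259.9 CPM with dDAVP; 0.33 ± 0.06, adjusted p = 0.000769). Of 31 genes of hypoxia and oxygen sensing 5 rose (16.1%) and 1 fell (3.23%), against 6.38% and 4.41% of all genes tested. Leaving out any 1 library gave 2 or 3 higher and 0 or 1 lower, so the list is not shown to depart from all genes. Ndrg1 was among the 5 that rose (0.69 ± 0.06, adjusted p = 9.55e-07). Pdk1 (0.00 ± 0.09, adjusted p = 0.995) and Egln3 (0.06 ± 0.25, adjusted p = 0.927) did not pass.

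Inflammatory genes rose in part. NF-kappaB, cytokine and complement genes rose in 7 of 34 (20.6%) and fell in 2 (5.88%), against 6.38% and 4.41% of all genes tested. Only 1 fell without vehicle replicate 1 or 3 or any of the 3 dDAVP libraries. C3, the central complement protein, was at 290.5, 260.4 and 252 CPM with vehicle and 489, 578 and 501 CPM with dDAVP (0.96 ± 0.06, adjusted p = 3.77e-08), Cfb, complement factor B, changed by 1.15 ± 0.10, adjusted p = 4.78e-07, and Nod2, a sensor of bacterial peptidoglycan, was at 3.11, 3.16 and 2.87 CPM with vehicle and 8.56, 9.49 and 9.68 CPM with dDAVP (1.60 ± 0.09, adjusted p = 7.66e-10). Chemokine genes rose in 6 of 12 (50.0%) and fell in 1 (8.33%), which was 0 without vehicle replicate 2 or any of the 3 dDAVP libraries. Cxcl10 (0.45 ± 0.08, adjusted p = 0.00097) and the scavenging receptor Ackr3 (0.45 ± 0.10, adjusted p = 0.00531) were among them. Immune cell markers summed to 45.8 to 49.8 CPM with vehicle and 43.0 to 45.4 CPM with dDAVP, none of the 4 tested was called, and Cd3e and Lyz2 were among the markers at 0 in all 6 libraries. Interferon-stimulated genes rose in 5 of 54, or 3 without vehicle replicate 2; 5 is 9.26% of the list, near the 6.38% of all genes tested. Among them were Isg20 (0.71 ± 0.12, adjusted p = 0.000602) and Oasl1 (0.49 ± 0.09, adjusted p = 0.00133).

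Of the Notch, WNT and TGF-beta lists few genes each were called. Notch genes fell in 5 of 23, 21.7% against 4.41% lower over all genes tested, 3 without vehicle replicate 2 or dDAVP replicate 1 or 3, and none rose, or 1 without vehicle replicate 1 or dDAVP replicate 3. The target Heyl was at 3.50, 3.24 and 3.94 CPM with vehicle and 1.75, 1.25 and 1.61 CPM with dDAVP (-1.20 ± 0.17, adjusted p = 0.000105) and the ligand Jag1 at 50.3, 47.3 and 44.3 CPM with vehicle and 33.9, 34.5 and 33.9 CPM with dDAVP (-0.47 ± 0.06, adjusted p = 3.17e-05). WNT genes gave 2 higher and 2 lower of 29, 6.90% in each direction against 6.38% and 4.41%, with 1 higher without dDAVP replicate 2 and 1 lower without vehicle replicate 2 or 3 or dDAVP replicate 2, and with the receptor Fzd4 at 10.8, 9.36 and 8.75 CPM with vehicle and 18.4, 19.4 and 20.4 CPM with dDAVP (1.01 ± 0.09, adjusted p = 3e-07) and the ligand Wnt7a lower (-0.38 ± 0.07, adjusted p = 0.000937). TGF-beta and BMP genes gave 5 in each direction of 44, 11.4% against the same 6.38% and 4.41%. Without vehicle replicate 2, 3 of 45 were higher, so the list is not shown to depart upward from all genes. Among the called were Tgfb2 (-0.77 ± 0.10, adjusted p = 4.44e-05) and Gdf15 (0.62 ± 0.07, adjusted p = 1.71e-05). Of the EGF family Egfr, the receptor, was at 102, 98.3 and 95.3 CPM with vehicle and 136, 157 and 138 CPM with dDAVP (0.54 ± 0.05, adjusted p = 3.08e-07). Stress-response genes of the endoplasmic reticulum and of amino acid shortage rose in 7 of 50, including Sesn2 (0.54 ± 0.06, adjusted p = 2.54e-06), Cebpb (0.53 ± 0.07, adjusted p = 2.2e-05) and Xbp1 (0.35 ± 0.05, adjusted p = 4.34e-05).

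Target genes of YAP and TAZ, with TAZ lowered in all 6 libraries, changed in both directions with dDAVP. Of 33 tested targets 12 fell and 5 rose, 36.4% and 15.2% of the list against 4.41% and 6.38% of all genes tested, with a median of -0.13, and 3 rose without vehicle replicate 2 or dDAVP replicate 2. Of the called targets Tgfb2 had the steepest decrease, at 11.3, 10.8 and 10.5 CPM with vehicle and 5.54, 7.73 and 5.86 CPM with dDAVP. Amotl2 (-0.25 ± 0.03, adjusted p = 6.58e-05), Axl (-0.37 ± 0.08, adjusted p = 0.00354) and Ankrd1 (28.5, 34.0 and 33.0 CPM with vehicle and 24.1, 25.2 and 26.7 CPM with dDAVP; -0.33 ± 0.07, adjusted p = 0.00451) fell as well. Dlc1 (6.95, 6.23 and 6.05 CPM with vehicle and 10.6, 10.9 and 12.5 CPM with dDAVP; 0.82 ± 0.09, adjusted p = 7.72e-06) and Dock5 (0.47 ± 0.04, adjusted p = 8.22e-07) rose. The reporter targets Ccn1 and Ccn2 did not pass: Ccn1 was at 152, 181 and 196 CPM with vehicle and 147, 139.6 and 149 CPM with dDAVP (-0.28 ± 0.11, adjusted p = 0.149, and 0.0396 without vehicle replicate 1) and Ccn2 at 95, 101 and 110.4 CPM with vehicle and 104, 102 and 106 CPM with dDAVP (0.03 ± 0.05, adjusted p = 0.813). Of 35 genes of TAZ, YAP, TEADs and Hippo kinases 11 fell and 1 rose, 2 without vehicle replicate 3 or dDAVP replicate 3 (median -0.07). They included Tead4 (-0.31 ± 0.06, adjusted p = 0.00132) and the scaffold Frmd6 (-0.28 ± 0.05, adjusted p = 0.000799); the phosphatase Ptpn14 rose (0.17 ± 0.04, adjusted p = 0.00512).

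**Figure D4:**
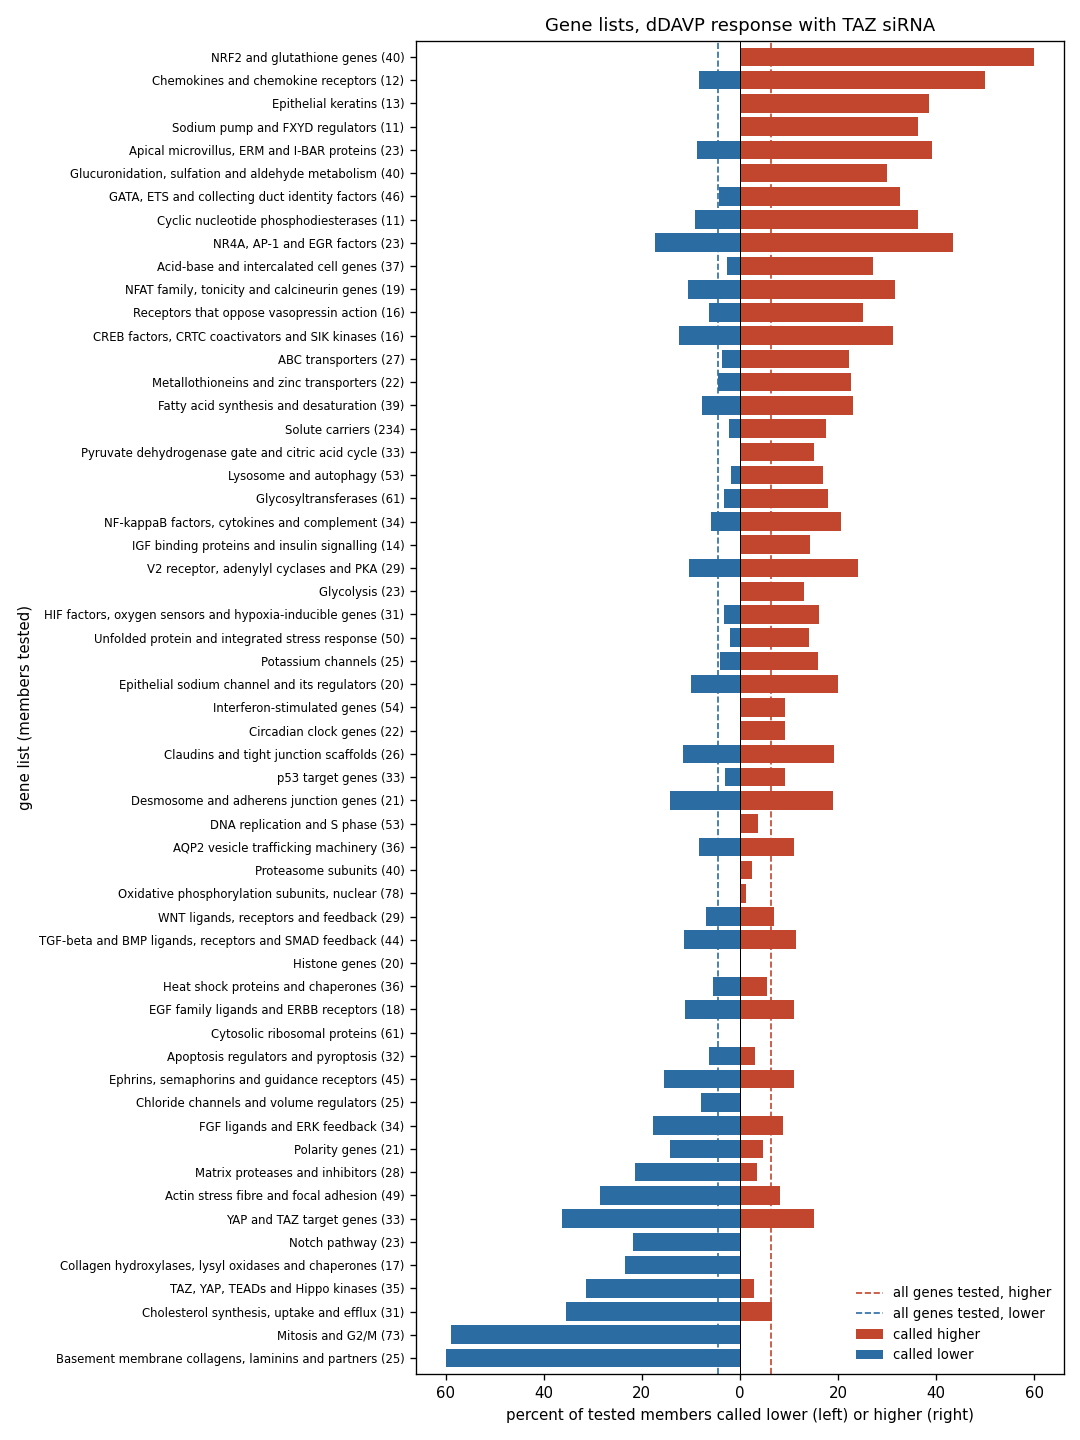
Percent of tested members called higher (red, right) or lower (blue, left) with dDAVP in TAZ siRNA cells, for the lists with at least 10 tested members; the number tested is in brackets. Dashed lines mark all genes tested, 6.38% higher and 4.41% lower. Basement membrane and mitosis lists are at the lower end and the NRF2 list at the upper. The lists were chosen with earlier results of these data known.

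The control siRNA response served to ask which of these changes differ when TAZ is not lowered. The responses share no library but share 1 estimate of the spread. dDAVP called 3058 genes with control siRNA, 19.2% of those tested (1548 higher, 9.72%, and 1510 lower, 9.48%). Of the 1016 genes higher with TAZ siRNA 1003 (98.7%) had a change of the same sign with control siRNA and 790 were called there. Of the 703 lower, 673 (95.7%) had the same sign and 510 were called there. In the opposite direction, 1 of the genes higher and 2 of the genes lower were called with control siRNA. The median change of the genes called higher was 0.29 with TAZ siRNA and 0.30 with control siRNA, and of those called lower -0.21 and -0.22. Chosen instead by a 2-fold rise with control siRNA, 160 genes had a median of 1.06 with TAZ siRNA and 1.51 with control siRNA; chosen by a 2-fold rise with TAZ siRNA, 96 genes had 1.53 and 1.60. The gap between the medians thus depended on which response chose the genes. Across the 15932 genes Pearson's r of the 2 responses was 0.38 and Spearman's rho 0.47, as a description, since genes are not independent.

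The difference of the responses was called in 5 of 15932 genes (0.0314%), and 1295 had an unadjusted p under 0.05. DESeq2 called 87 and limma-voom 5, and leaving out 1 library gave 3 to 16, the most without TAZ siRNA vehicle replicate 1. In all 5 the change was smaller with TAZ siRNA. Slc39a4 stood at 26.3, 28.0 and 28.1 CPM with control siRNA and vehicle and 106, 106 and 102 CPM with control siRNA and dDAVP, a change of 1.93 ± 0.05 against 1.40 ± 0.05 with TAZ siRNA (difference -0.53 ± 0.07, adjusted p = 0.00374). Abcc3 rose by 1.32 ± 0.07 with control siRNA and 0.60 ± 0.07 with TAZ siRNA (difference -0.72 ± 0.09, adjusted p = 0.00374). Col4a4 changed by -0.78 ± 0.04 against -0.37 ± 0.04 (difference 0.41 ± 0.05, adjusted p = 0.00374). These 3 differences were called in edgeR without any 1 of the 12 libraries. Cxcl5, a neutrophil chemokine, was at 17.2, 27.1 and 20.6 CPM with vehicle and 29.5, 31.6 and 28.3 CPM with dDAVP after TAZ siRNA and at 11.5, 13.7 and 11.4 CPM with vehicle and 39.8, 39.0 and 38.8 CPM with dDAVP after control siRNA (difference -1.23 ± 0.17, adjusted p = 0.032). Col4a1 differed by 0.29 ± 0.05, adjusted p = 0.044. The call of Col4a1 was lost without any of 9 libraries (adjusted p 0.0561 to 0.165), namely control vehicle replicates 2 and 3, control dDAVP replicates 2 and 3, TAZ siRNA vehicle replicates 2 and 3 and the 3 TAZ siRNA dDAVP libraries. It was also lost with the replicate block (0.0631), median-of-ratios scaling (0.0558), limma-voom (0.0594) and no robust moderation (0.0618). That of Cxcl5 was lost without any of 7 (0.0526 to 0.15), namely control vehicle replicates 1 and 3, control dDAVP replicates 2 and 3, TAZ siRNA vehicle replicate 3 and TAZ siRNA dDAVP replicates 1 and 3. Bmp3, Col4a2, Col4a3, Scnn1a and Nup210 came next, with adjusted p-values of 0.0568 to 0.0594. For Aqp2 the test of the difference gave 1.10 ± 1.11, adjusted p = 0.843.

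**Figure D5:**
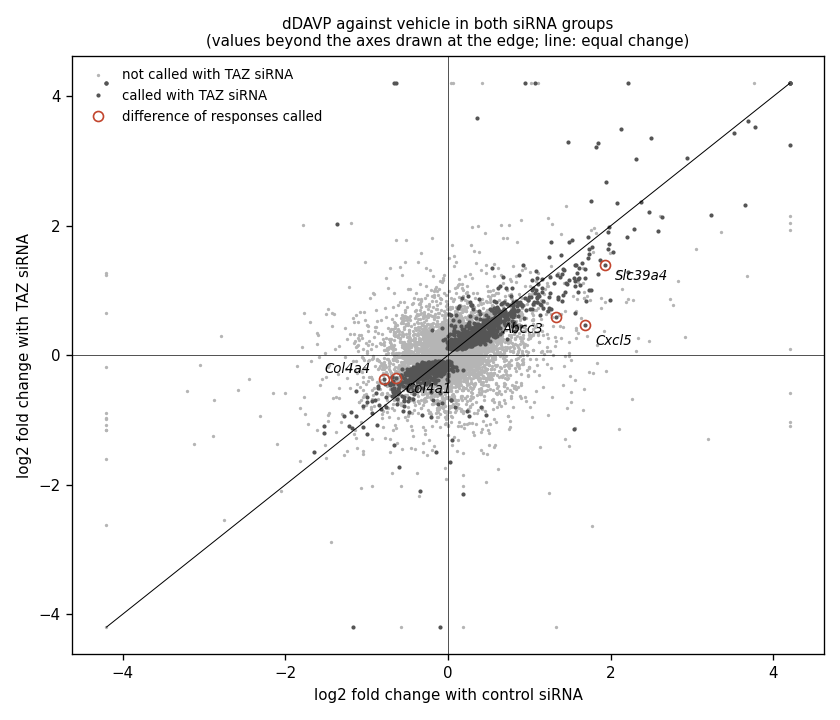
Log2 fold change, dDAVP over vehicle, of each tested gene with control siRNA (x axis) and with TAZ siRNA (y axis). Dark points were called with TAZ siRNA, red circles mark the 5 genes whose difference was called, and all 5 lie on the side of the smaller change with TAZ siRNA.

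Lists of ribosomal, oxidative phosphorylation and proteasome genes with calls after control siRNA had at most 1 after TAZ siRNA. Of all genes tested 9.72% were called higher with control siRNA and 6.38% with TAZ siRNA. Cytosolic ribosomal protein genes gave 36 of 61 called higher with control siRNA and 0 with TAZ siRNA (medians 0.18 and 0.07). The summed TAZ siRNA levels overlapped, at 13470, 14660 and 15050 CPM with vehicle and 15610, 14190 and 15230 CPM with dDAVP. Nuclear genes of oxidative phosphorylation gave 27 and 1 of 78 (8 without dDAVP replicate 2, 2 without vehicle replicate 3 and 0 without any other), proteasome subunits 17 and 1 of 40 (3 without dDAVP replicate 2, 2 without vehicle replicate 3 and 0 without any other), and glycolysis genes 14 and 3 of 23 (1 without dDAVP replicate 2), where 3 is 13.0% of the list. Ribosomal genes gave 2 called higher without vehicle replicate 3 or dDAVP replicate 2. No gene of these 4 lists passed the test of the difference, so the responses are not shown to differ between the siRNAs. dDAVP replicate 2 was the lowest dDAVP library in the ribosomal and oxidative phosphorylation sums and vehicle replicate 1 the lowest vehicle library. The part of these 2 libraries in the lists' counts beyond the values given was not tested.

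Some called genes were near 0 in 1 group. Of the 1719 called, 24 had at most 12 counts summed over a group; 10 had none with vehicle and 2 none with dDAVP. Slc16a8, a lactate transporter, had 0 counts with vehicle and 14, 6 and 16 with dDAVP, at least 14.5-fold higher. Its fitted change with control siRNA was -5.67, called in the opposite direction (adjusted p = 0.043 by edgeR), and the test of the difference did not pass (0.087). The adjusted p after TAZ siRNA was 0.0506 without vehicle replicate 2. Slc13a2, a citrate transporter, had 5, 0 and 0 counts with vehicle and 17, 12 and 13 with dDAVP, a ratio of 10.2 (95% counting interval 4.03 to 32.9), and its adjusted p was 0.0662 without vehicle replicate 2. Changes of this kind rest on few counts, and the intervals cover counting error only. Genes this low in 1 group could pass the filter on low counts only through other libraries, which raises the called share of lists that hold them. Among them were Kcne2, Krt87, Slc4a9 and Ugt1a6b, of the potassium channel, keratin, acid-base and conjugating enzyme lists.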

How the data were processed

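RNA-seq was analysed from 12 libraries of mpkCCDc11 cells, 3 in each of 4 groups assigned from the labels. The authors deposited estimated counts and TPM per gene and estimated counts and FPKM per transcript, per the file headers. Bowtie 0.12.2 and the builds mm8 and mm10 are named, without a role, in the submitters' processing notes. The deposited tables carry mm10 in their names, and neither the counting tool nor the use of strand is given in the sources used here. Overlapping and antisense genes and near-identical copies are therefore uncertain. The estimated counts were already whole numbers. In 85.6% of 157342 low transcript values the deposited FPKM did not correspond to a whole count (tolerance 0.05), and 12 of 549324 gene values differed from the sum of their transcripts. A further 24 per-sample columns were not used.

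Genes were filtered with filterByExpr (minimum count 10), which left 15932 of 45777 genes with 99.976% of counts. Counts were scaled by TMM (factors 0.988 to 1.01) and tested with edgeR 4.0.16 in R 4.3.3 (quasi-likelihood, robust). All 12 libraries entered 1 fit with a mean per group, which shares the estimate of the spread (biological coefficient of variation 5.11%). Contrasts were dDAVP against vehicle within each siRNA and the difference of these, with Benjamini-Hochberg adjustment over all genes. Replicates of a group differed by more than counting noise (chi-square over degrees of freedom, 4.251 to 13.55), so all were kept. TPM served only to compare levels between genes. Counting intervals are exact 95% intervals. Promoter windows and their sequences come from RefSeq (GRCm38.p6); 43987 of 45677 genes compared (96.3%) had the same coordinates there as in the deposited table.

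Genes named are the 15 with the smallest p in each direction at 5 CPM or more, up to 4 called members per direction of each of 60 lists, key members of those lists, the 10 smallest p of the difference, and the 4 largest rises with a full response element. The members and lists were chosen with earlier results of these data known. Alternatives were median-of-ratios scaling, no filter, a minimum count of 50, DESeq2 1.42.0, limma-voom 3.58.1, no robust moderation, a replicate block, the 6 TAZ siRNA libraries alone, and each library left out. The scripts were tested on simulated data.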

Additional observations from a re-analysis of the deposited data

Results flagged for a closer look

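In 5 genes the response to dDAVP differed between the siRNAs by the test of the difference itself (edgeR, 3 libraries in each of 4 groups). The difference, TAZ siRNA minus control siRNA on the log2 scale, was -0.53 for Slc39a4 (adjusted p = 0.00374), -0.72 for Abcc3 (0.00374), 0.41 for Col4a4 (0.00374), -1.23 for Cxcl5 (0.032) and 0.29 for Col4a1 (0.044). Each was a smaller change after TAZ siRNA. In Slc39a4, Abcc3 and Cxcl5 the dDAVP libraries after TAZ siRNA were all below those after control siRNA, and in Col4a4 and Col4a1 all above. The calls of Slc39a4, Abcc3 and Col4a4 held without any 1 of the 12 libraries. That of Cxcl5 was lost without any of 7 libraries (adjusted p 0.0526 to 0.15), and that of Col4a1 without any of 9 (0.0561 to 0.165), with the replicate block (0.0631), with median-of-ratios scaling (0.0558), with limma-voom (0.0594) and with no robust moderation (0.0618).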

How the results depend on the processing

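The count of 1719 genes called after TAZ siRNA was 1723 with median-of-ratios scaling, 1663 with no filter on low counts, 1837 with a minimum count of 50, 2056 with DESeq2, 1656 with limma-voom, 1695 with no robust moderation and 1303 with only the 6 TAZ siRNA libraries. With no filter the split was 809 higher and 854 lower against 1016 and 703. Leaving out 1 library gave 1118 to 1752 calls, 680 to 933 higher and 438 to 819 lower, the fewest without TAZ siRNA vehicle replicate 2. The replicate block gave 1663 calls (996 higher, 667 lower) and 6 for the difference. After group means were taken out, same-numbered libraries correlated at only -0.0178 to 0.0614. With 3 libraries a group, this cannot show whether same-numbered libraries share a culture or batch. The difference of 5 genes became 12 with no filter, 14 with a minimum count of 50 and 87 with DESeq2, and 3 to 16 when 1 of the 12 libraries was left out; the cause was not tested. The control siRNA count of 3058 ran from 2103 to 2685 without 1 library. Over the genes named and the alternatives run, 2748 of the values stayed on their side of the threshold, 63 lost the call, 3 gained one and no called gene reversed. Depth limits genes under 1 CPM, of which 1.89% were called.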

Other observations

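Gene groups not described above gave further values for dDAVP against vehicle after TAZ siRNA (edgeR, 3 libraries a group, log2 change ± standard error). The shares over all genes tested were 6.38% higher and 4.41% lower. Lysosome and autophagy genes rose in 9 of 53 (17.0%) and fell in 1 (1.89%). There were 4 higher without vehicle replicate 2 or dDAVP replicate 1 and 5 without dDAVP replicate 2. The cathepsins Ctsh (0.55 ± 0.05, adjusted p = 2.66e-07) and Ctsd (0.36 ± 0.04, adjusted p = 4.02e-06) and Scarb2, a lysosomal membrane protein (0.47 ± 0.07, adjusted p = 0.000123), rose, and Ctsl fell (-0.21 ± 0.05, adjusted p = 0.00549). Glycosyltransferases rose in 11 of 61, 5 without vehicle replicate 2 and 6 without dDAVP replicate 2, and fell in 2, 1 without dDAVP replicate 1. Galnt7, which starts O-linked sugar chains, was at 18.1, 15.7 and 16.0 CPM with vehicle and 20.8, 23.4 and 22 CPM with dDAVP (0.41 ± 0.07, adjusted p = 0.000483). NFAT, tonicity and calcineurin genes rose in 6 of 19 (31.6%). They fell in 2 (10.5%), 1 without vehicle replicate 1 or 2 or dDAVP replicate 1 or 3. Rcan1, an inhibitor of calcineurin, rose (0.29 ± 0.06, adjusted p = 0.00218), whereas Nfat5, the tonicity factor, was at 1264, 1196 and 1166 CPM with vehicle and 1016, 1161 and 1024 CPM with dDAVP (-0.18 ± 0.05, adjusted p = 0.0326), and missed the threshold without vehicle replicate 1 (0.112), without vehicle replicate 2 (0.0712), without dDAVP replicate 1 (0.14), without dDAVP replicate 3 (0.126).

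Guidance genes rose in 5 of 45 (11.1% against 6.38% of all genes tested), 3 without vehicle replicate 2 or dDAVP replicate 2. They fell in 7 (15.6% against 4.41%). Sema7a, a membrane-anchored semaphorin, was at 4.91, 5.71 and 5.28 CPM with vehicle and 3.54, 2.65 and 2.54 CPM with dDAVP (-0.85 ± 0.13, adjusted p = 0.000282), and Nrxn2, a neurexin, at 1.58, 1.30 and 1.34 CPM with vehicle and 0.772, 0.488 and 0.728 CPM with dDAVP (-1.07 ± 0.19, adjusted p = 0.00107). Genes of FGF ligands and ERK feedback rose in 3 of 34 (8.82%) and fell in 6 (17.6%), 3 without vehicle replicate 2 or dDAVP replicate 3. Besides Fgf18, Dusp8 fell (-0.64 ± 0.12, adjusted p = 0.00125), and Dusp10, a phosphatase of stress kinases, rose (0.78 ± 0.11, adjusted p = 8.44e-05). Irs2, an adaptor of the insulin receptor, was at 59.3, 59.5 and 58.4 CPM with vehicle and 78.8, 85.6 and 73.0 CPM with dDAVP (0.42 ± 0.05, adjusted p = 2.32e-05). It was 1 of 2 genes higher among 14 of insulin and IGF signalling (14.3%), with 1 higher in all without dDAVP replicate 1 or 3 or any vehicle replicate. Crb2, a polarity protein, fell (-0.51 ± 0.10, adjusted p = 0.00252), 1 of 3 lower among 21 polarity genes (14.3%). Genes of the pyruvate dehydrogenase gate and citric acid cycle rose in 5 of 33 (15.2%). There were 2 without vehicle replicate 2 or dDAVP replicate 1 or 3 and 3 without dDAVP replicate 2. Pyruvate carboxylase (Pcx) was at 0.36 ± 0.05, adjusted p = 8.44e-05. Nlrc3, a regulator of innate sensing, fell most among the called of 32 apoptosis and pyroptosis genes (-0.96 ± 0.19, adjusted p = 0.00251). Of the 32, 2 fell (6.25%), 1 without vehicle replicate 2 or dDAVP replicate 1 or 3. The 1 that rose (3.125%) became 2 without dDAVP replicate 1. Of 33 tested p53 target genes 3 rose (9.09%) and 1 fell (3.03%), near the 6.38% and 4.41% of all genes tested. Leaving out 1 library gave 2 to 4 higher and 1 to 4 lower. Pmaip1, a p53 target also called Noxa, fell (-0.38 ± 0.08, adjusted p = 0.00263). Circadian genes gave 2 higher of 22 (9.09%, near the 6.38% of all genes tested), 0 without vehicle replicate 2 or dDAVP replicate 2. Chloride channels gave 2 lower of 25 (8.0% against 4.41%), 0 without dDAVP replicate 3 and 1 without vehicle replicate 2 or 3.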
